A study of Mus musculus with 8 samples.

Results

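The comparison described here is the later reversal after angiotensin II (AngII): mouse aortas taken 3 weeks after the end of an AngII infusion (AngII+3W) against aortas taken at its end (AngII). It uses the 4 libraries that the labels place in these groups, of 8 in the series, with 2 libraries on each side, and it is described across all 17182 genes tested of the 35896 listed. All mice were C57BL6 males. At 11 weeks of age they received osmotic minipumps that delivered 2.8 mg/kg/d of AngII for 2 weeks. AngII mice were killed when the infusion stopped and AngII+3W mice 3 weeks later, so that AngII+3W mice were also 3 weeks older. The other groups are AngII+2W, killed 2 weeks after the infusion, and CTRL, untreated littermates whose time of sacrifice the labels do not give. They entered the same model and are used here as reference levels. Each library is RNA from 1/3 of the aorta, with tissue of 2 mice pooled before extraction, and replicates are therefore separate pools. The hour of sacrifice is not given in the sources used here.

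AngII is the effector peptide of the renin-angiotensin system. It raises blood pressure by contracting vascular smooth muscle, and over days of infusion it thickens the aortic wall through matrix synthesis, cell division and recruitment of macrophages. Smooth muscle cells exposed to it lose contractile proteins and make collagens and other secreted proteins. When the peptide is withdrawn, each of these processes can be followed by the RNA of its genes.

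The totals of the deposited expected counts lay between 18130441 and 21498200 per library, where 3 counts equal 0.140 to 0.165 CPM (read counts scaled to a common normalized library size). Smooth muscle markers, which define the aortic media, were present in every library. Acta2, the smooth muscle actin, lay at 506 and 664 CPM in AngII and at 350 and 550 CPM in AngII+3W. A library that stands apart is AngII+3W replicate 1, which carried RNA of striated muscle. Genes of skeletal muscle took 0.417% of its counts (95% Wilson interval 0.414 to 0.420%, counting error only), against 0.0148% in AngII+3W replicate 2 and 0.0215% and 0.0148% in AngII. Cardiac muscle genes took 0.636% of its counts, against 0.0611% in AngII+3W replicate 2, 0.166% and 0.113% in AngII, and 0.598% and 0.282% in CTRL. Its share of mitochondrial transcripts was 18.3%, the highest of the 8 libraries, which ranged from 8.15%. Below, counts of genes are given with and without this library. In bulk tissue, fewer cells of a type and less RNA per cell cannot be told apart.

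**Figure D1:**
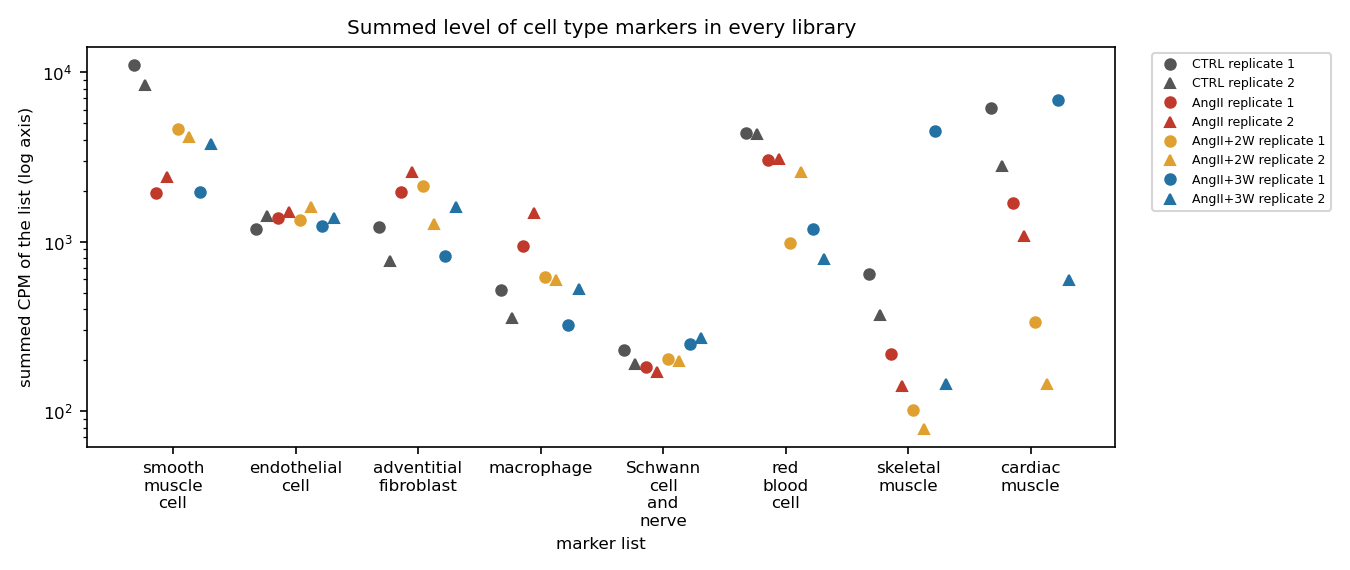
Summed CPM of the listed markers, tested or not, of 8 cell types in each of the 8 libraries, on a log axis. Circles mark replicate 1, triangles replicate 2, and each group has a colour. In AngII+3W replicate 1 the skeletal muscle markers sum to 4490 CPM, against 144 CPM in AngII+3W replicate 2. The macrophage markers sum to 941 and 1470 CPM in AngII and to 324 and 523 CPM in AngII+3W.

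At 3 weeks after the infusion, more genes were lower than higher. The lower genes included collagens, matricellular proteins, genes of cell division, complement and acute-phase proteins, and the higher ones genes of the circadian clock and of Schwann cells. The quasi-likelihood test of edgeR, adjusted by the Benjamini-Hochberg method, called 276 of 17182 genes at FDR below 0.05 (1.61%), of which 49 were higher (0.285%) and 227 lower (1.32%) in AngII+3W. The higher genes had log2 fold changes of 0.61 to 3.75 with a median of 1.16, and 5 of them changed more than 4-fold. The lower genes had log2 fold changes of -7.39 to -0.72 with a median of -1.71, and 78 of them changed more than 4-fold. The median over all genes tested was 0.04. In all 276 genes both AngII+3W libraries lay on one side of both AngII libraries, a separation that 24.8% of all genes tested showed upward and 24.2% downward. At FDR below 0.1 the counts were 189 higher and 585 lower. At an unadjusted p below 0.05 in the same test they were 1274 higher and 1785 lower.

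The number called moved with single libraries. It was 134 without CTRL replicate 1, 127 without CTRL replicate 2, 64 without AngII replicate 1, 3 without AngII replicate 2, 22 without AngII+2W replicate 1, 22 without AngII+2W replicate 2, 22 without AngII+3W replicate 1 (6 higher and 16 lower) and 1005 without AngII+3W replicate 2 (365 higher and 640 lower). Of the 64 genes without AngII replicate 1, 1 was higher, and of the 3 without AngII replicate 2, 0 were higher. In the fit without AngII+3W replicate 1, 19 of its 22 genes were among the 276. The gene lists described below moved too. Leaving out AngII replicate 1, AngII+2W replicate 1 or AngII+2W replicate 2, in this order, gave 2, 1 and 1 collagens, 2, 1 and 1 matricellular genes, 2, 1 and 1 elastic fibre genes, 3, 0 and 0 matrix proteases and inhibitors, 3, 1 and 1 cell cycle genes, 1, 1 and 1 chemokines and receptors, 1, 0 and 0 complement genes, 3, 1 and 1 acute-phase genes, 1, 4 and 4 clock genes and 0, 0 and 0 Schwann cell genes. Serpina3n was called in all 8 of these fits, and Tnn, Wfdc21, Spon2, Plvap, Ppic, Mki67, Tmem176a, Ccl8 and Fbn2 in 7 of 8, each of them missing the threshold without AngII replicate 2.

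**Figure D2:**
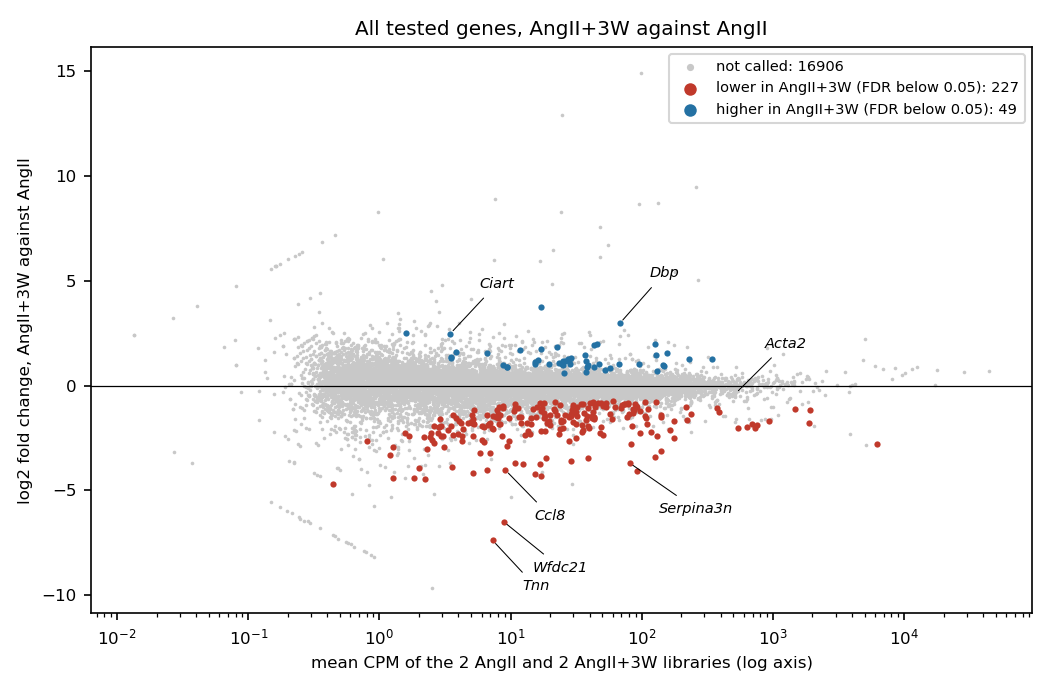
Log2 fold change of AngII+3W against AngII (vertical axis) against the mean CPM of the 4 libraries compared (log axis) for 17182 genes, with the 227 lower genes in red, the 49 higher genes in blue and the other genes in grey. Grey points above a log2 fold change of 5 include striated muscle genes such as Myh4, which lay at 394 CPM in AngII+3W replicate 1 alone.

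The lower gene with the smallest p was Serpina3n (chr12:104406729-104414329, GRCm38, forward strand), a secreted serine protease inhibitor of the acute-phase response. It lay at 153 and 147 CPM in AngII, at 8.82 and 14.4 CPM in AngII+3W and at 14.1 and 14.2 CPM in CTRL. The AngII+3W libraries were far below both AngII libraries and around the untreated level. The log2 fold change was -3.69 ± 0.22 (SE, n = 2 libraries a group; edgeR quasi-likelihood test, FDR = 0.00425), and its FDR without AngII+3W replicate 1 was 0.000974.

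The called genes with the lowest log2 fold changes were Tnn and Wfdc21, both near the floor in AngII+3W and in CTRL. Tnn (chr1:160085029-160153580, reverse strand), the matricellular protein tenascin-W, had 223 and 359 counts in AngII and 2 and 1 counts in AngII+3W, against 2 and 0 counts in CTRL. Its CPM was 182 times higher in AngII than in AngII+3W, with a 95% counting interval of 62 to 886, and its FDR in edgeR's quasi-likelihood test was 0.0145. Wfdc21, a small secreted protein with a whey acidic protein domain, had 686 counts over the AngII libraries and 7 over the AngII+3W libraries, a ratio of 92 (44.4 to 230). In neither gene did the groups come near each other.

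Plvap, which forms the diaphragms of endothelial fenestrae and caveolae, lay at 42.2 and 41.0 CPM in AngII and at 14.8 and 15.8 CPM in AngII+3W, with 19.6 and 19.1 CPM in CTRL (log2 fold change -1.44 ± 0.119 SE, FDR = 0.0145). Ppic, cyclophilin C, a prolyl isomerase of the secretory pathway, went from 60.7 and 70.2 CPM to 19.6 and 23.3 CPM. Tmem176a, a membrane protein of immune cells, went from 36.2 and 39.4 CPM to 15.2 and 13.4 CPM. These 3 genes differed by much more between groups than within them. Crip1, a small LIM-domain protein, fell from 57.2 and 62.8 CPM to 25.3 and 25.4 CPM, while CTRL stood at 48.6 and 48.3 CPM, so that its AngII+3W level was below the untreated one as well (log2 fold change against CTRL -0.93).

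**Figure D3:**
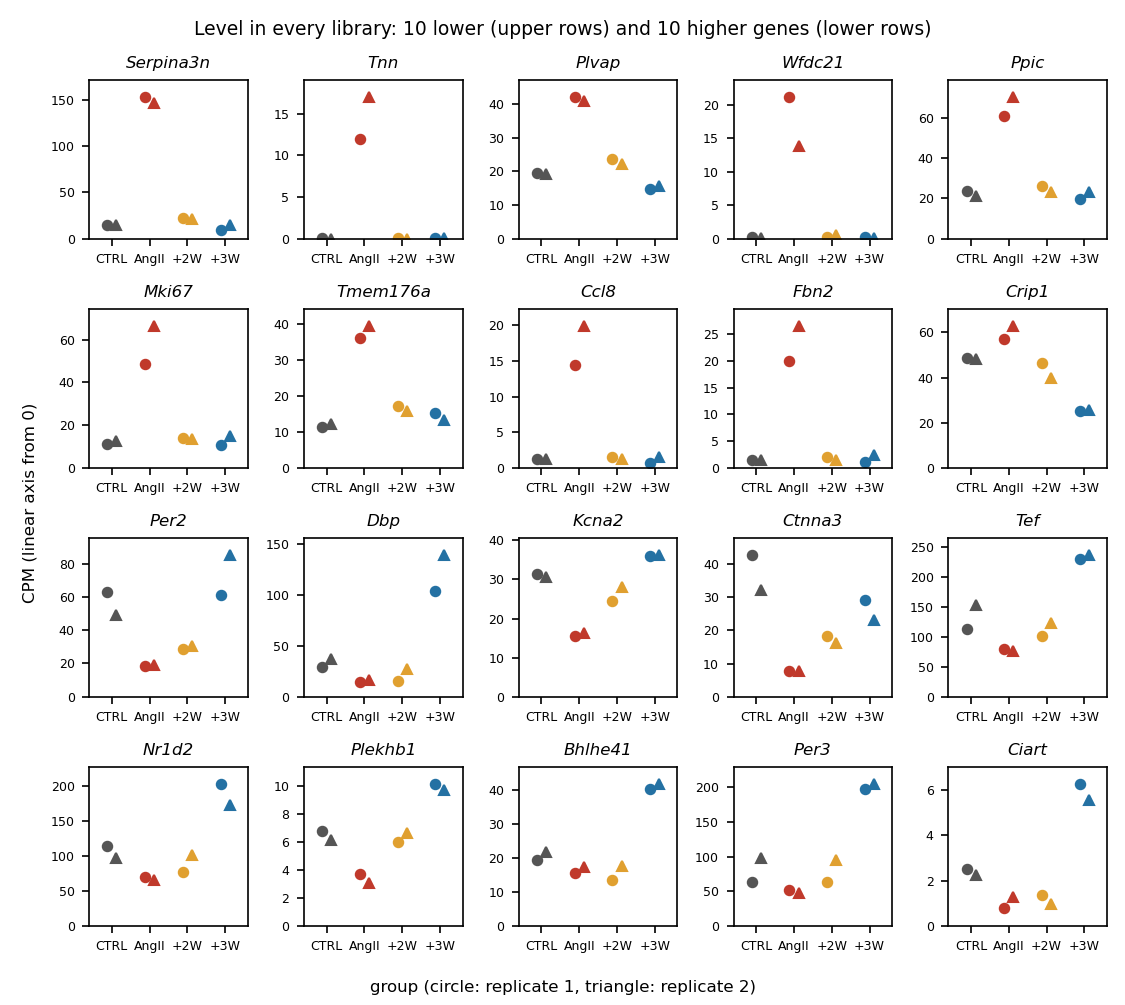
CPM in each of the 8 libraries for the 10 lower genes (upper rows) and 10 higher genes (lower rows) with the smallest p, on linear axes from 0, with circles for replicate 1 and triangles for replicate 2. In all 20 panels the AngII+3W pair lies on one side of the AngII pair. Serpina3n is at 153 and 147 CPM in AngII and at 8.82 to 22 CPM in the other libraries.

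Genes of the structural matrix were lower. Of 17 fibrillar and network collagens tested, 8 fell and none rose, with a list median of -1.64 against 0.04 over all genes, and 16 lay below both AngII libraries in both AngII+3W libraries. Col3a1, the fibrillar collagen of distensible tissue, lay at 8390 and 13400 CPM in AngII, at 959 and 2210 CPM in AngII+3W and at 1820 and 1250 CPM in CTRL. Both AngII+3W libraries were far below the AngII libraries and spanned the untreated ones (log2 fold change -2.78 ± 0.454 SE, edgeR FDR = 0.0383). Col8a1, a network collagen of the vessel wall, went from 273 and 231 CPM to 19.1 and 38.6 CPM, with CTRL at 16.2 and 15.8 CPM (-3.13 ± 0.358, FDR = 0.0206). Col11a1, a fibril-nucleating collagen, went from 37.7 and 68.4 CPM to 2.47 and 6.34 CPM (-3.59, FDR = 0.025), still above the CTRL values of 1.22 and 0.706 CPM. Col6a3, Col12a1, Col5a3, Col5a2 and Col4a1 fell as well. The chains of type I collagen did not pass the test: Col1a1 had 6640 and 11200 CPM in AngII against 589 and 1920 CPM in AngII+3W (-2.83 ± 0.58, FDR = 0.062), and Col1a2 had an FDR of 0.0819. AngII+3W replicate 1 was the lower of its pair for these genes. The number of collagens called was 0 without AngII replicate 2, 1 without AngII+3W replicate 1 and 17 without AngII+3W replicate 2.

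Of 17 matricellular and provisional matrix proteins, which regulate cells rather than bear load, 7 fell, none rose, and the median was -1.90. Beside Tnn they were Cthrc1, Cilp, Postn, Sparc, Vcan and Thbs1. Cthrc1, a secreted protein of activated fibroblasts, lay at 27.8 and 30.6 CPM in AngII and at 0.591 and 2.58 CPM in AngII+3W (-4.20 ± 0.539, edgeR FDR = 0.0221). CTRL was at 0.585 and 0.706 CPM, so that AngII+3W replicate 1 lay between the CTRL libraries and replicate 2 above both. Postn, periostin, which binds collagen, went from 1070 and 1090 CPM to 243 and 373 CPM, and CTRL lay above these at 732 and 534 CPM. Thus these genes did not share a position relative to CTRL: Postn was below both CTRL libraries, and the Cthrc1 values overlapped them. The number called was 0 without AngII replicate 2, 2 without AngII+3W replicate 1 and 12 without AngII+3W replicate 2.

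Among 18 elastic fibre and cross-linking genes, 4 fell (Fbn2, Loxl2, Mfap2 and Fbn1), none rose, and the median was -1.25. Fbn2, the fibrillin of developing elastic fibres, lay at 19.9 and 26.5 CPM in AngII, at 1.08 and 2.42 CPM in AngII+3W and at 1.51 and 1.36 CPM in CTRL (-3.73 ± 0.368, edgeR FDR = 0.0145). Loxl2, a cross-linking lysyl oxidase, went from 108 and 161 CPM to 28.6 and 41.9 CPM. Eln, elastin itself, had 1120 and 2070 CPM in AngII against 289 and 908 CPM in AngII+3W, with CTRL at 2220 and 2420 CPM, and did not pass the test (FDR = 0.213). The AngII+3W libraries were the lowest for Eln, but they lay far apart. With libraries left out, the count was 0 without AngII replicate 2, 1 without AngII+3W replicate 1 and 15 without AngII+3W replicate 2.

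Of 17 matrix proteases and inhibitors, 3 fell: Adamts4, an aggrecan-cleaving protease, Timp1, an inhibitor of metalloproteinases, and Mmp14, a membrane-bound collagenase (median of the list -0.93; 0 called without AngII replicate 2, 0 without AngII+3W replicate 1 and 7 without AngII+3W replicate 2). Timp1 went from 20.8 and 41.4 CPM in AngII to 1.34 and 3.33 CPM in AngII+3W, with CTRL at 2.63 and 2.45 CPM (-3.73 ± 0.481, edgeR FDR = 0.0221). Mmp2, gelatinase A, had 284 and 503 CPM in AngII against 48.8 and 120 CPM in AngII+3W and missed the threshold (FDR = 0.0646). Genes that fold and modify secreted proteins in the endoplasmic reticulum, a list chosen after the values were seen, had 7 of 22 members lower, none higher and a median of -0.58. They were Manf, Sdf2l1, Calr, Pdia4, Pdia6, Pdia3 and Ppib. Manf, a protein induced by unfolded proteins, lay at 43.8 and 43.1 CPM in AngII and at 18.0 and 17.3 CPM in AngII+3W, below CTRL at 33.2 and 28.9 CPM (-1.30 ± 0.146, FDR = 0.0206). The number called in this list was 0 without AngII replicate 2, 0 without AngII+3W replicate 1 and 9 without AngII+3W replicate 2. Another 2 called genes outside the lists were also chosen after their values were seen. Serpinh1, the collagen chaperone HSP47, went from 502 and 593 CPM to 177 and 274 CPM, and P4ha3, a prolyl hydroxylase, from 9.66 and 12 CPM to 1.08 and 2.31 CPM.

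**Figure D4:**
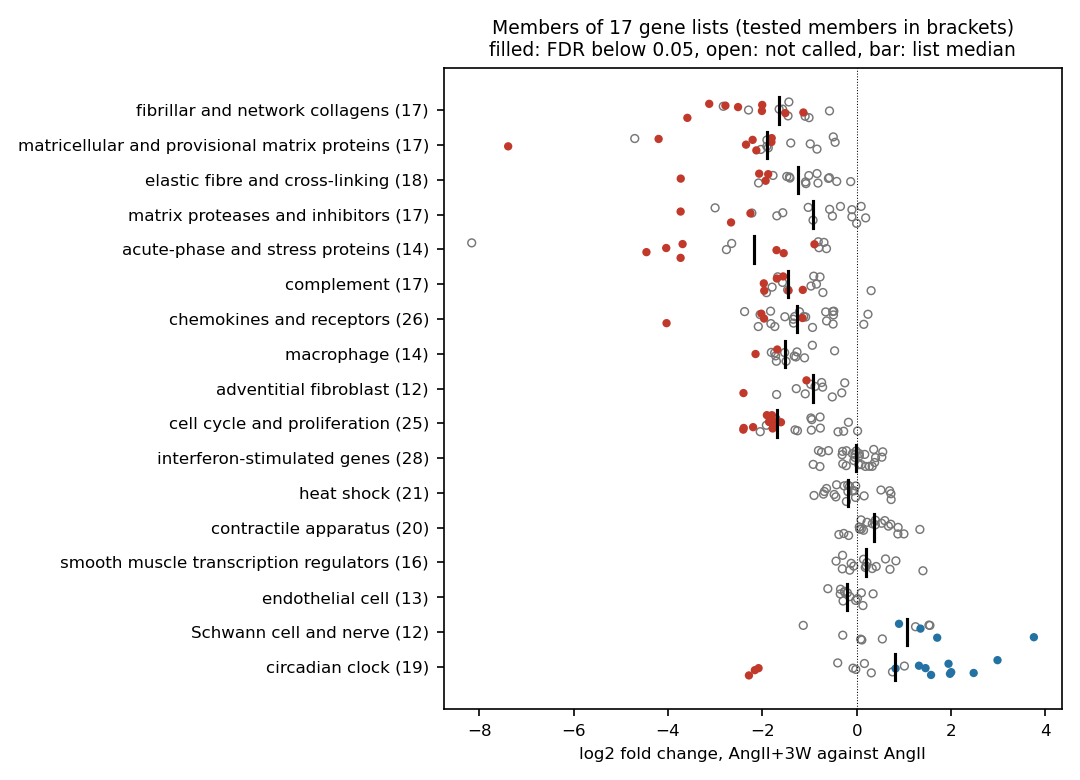
Log2 fold changes of AngII+3W against AngII for every tested member of 17 gene lists, with filled points for genes at FDR below 0.05 and open points for the others, and a bar at the list median. Medians run from -2.18 for acute-phase and stress proteins to 1.07 for Schwann cell and nerve genes.

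Genes of cell division were among the lower ones. Of 25 cell cycle genes, 11 were lower and none higher, the median was -1.70, and 23 lay below both AngII libraries in both AngII+3W libraries. Mki67, which encodes the proliferation marker Ki-67, lay at 48.6 and 66.3 CPM in AngII, at 10.5 and 14.6 CPM in AngII+3W and at 11.0 and 12.3 CPM in CTRL (-2.20 ± 0.213, edgeR FDR = 0.0145). The AngII+3W and CTRL values overlapped (log2 fold change against CTRL 0.10, FDR = 0.88). Top2a, the topoisomerase of dividing cells, went from 26.6 and 36.3 CPM to 7.36 and 9.99 CPM, and Kif20a, a kinesin of cytokinesis, from 5.13 and 5.17 CPM to 1.13 and 0.806 CPM. Kif11, Cdk1, Prc1, Tpx2, Ccna2, Bub1, Ccnb1 and Foxm1 were also called. Ccnb1 shares 97.3 to 99.2% identity with pseudogenes over 51.7 to 51.9% of its transcript, so that its level is uncertain. The number called was 0 without AngII replicate 2, 1 without AngII+3W replicate 1 and 12 without AngII+3W replicate 2. Replication-dependent histones, whose transcripts are made in S phase, were added as a list after the values were seen. Of 60 tested, 15 were lower and none higher, with a median of -1.54 and 53 members below both AngII libraries (0 called without AngII replicate 2 or AngII+3W replicate 1, 25 without AngII+3W replicate 2). Members of this family are near-identical, and reads can be split between them, so that no single member is described.

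Some chemokine genes were lower. Of 26 chemokines and receptors, 4 fell, namely Ccl8, Ccl9, Ccl19 and Ccr2, and the median was -1.26. Ccl19 has a near-identical predicted copy and is uncertain. Ccl8, a monocyte attractant, lay at 14.5 and 19.9 CPM in AngII, at 0.591 and 1.5 CPM in AngII+3W and at 1.27 and 1.18 CPM in CTRL (-4.03 ± 0.394, edgeR FDR = 0.0145). Ccr2, the receptor of inflammatory monocytes, went from 39.2 and 42.5 CPM to 14.7 and 22.1 CPM, against 11.6 and 9.13 CPM in CTRL. Ccl8 was back at the CTRL level, and Ccr2 lay above both CTRL libraries (0.83, FDR = 0.174). The count was 0 without AngII replicate 2, 1 without AngII+3W replicate 1 and 9 without AngII+3W replicate 2.

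Of 17 complement genes, 6 fell, none rose, and the median was -1.46. C3, the central component, went from 2690 and 2600 CPM in AngII to 1180 and 1220 CPM in AngII+3W, with CTRL at 1170 and 1280 CPM (-1.14 ± 0.177, edgeR FDR = 0.0308). The AngII+3W and CTRL pairs overlapped closely. C3ar1, the receptor of its fragment C3a, Cfp, properdin, and C1qb, a chain of the recognition protein C1q, were also lower. C4b and Cfb were lower, and since each has a copy at 95% identity or more, their levels are uncertain. With libraries left out, the count was 0 without AngII replicate 2, 0 without AngII+3W replicate 1 and 12 without AngII+3W replicate 2. Macrophage markers moved in the same direction, with Cd68 and Itgam called of 14 (Itgam uncertain, since it shares 99.9% of its sequence with a predicted gene over 73.8% of its transcript), a median of -1.51, and 12 of 14 below both AngII libraries (2 called, 0 without AngII+3W replicate 1 or AngII replicate 2 and 8 without AngII+3W replicate 2). Cd68, a lysosomal protein of macrophages, had 15.2 and 29.2 CPM in AngII against 3.66 and 6.39 CPM in AngII+3W, with CTRL at 5.16 and 4.99 CPM. The part of macrophage number in the chemokine and complement values was not tested.

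Acute-phase and stress proteins had a median of -2.18, with 7 of 14 lower and none higher. Besides Serpina3n and Timp1 they were Lcn2, Serpina3m, Mt1, Mt2 and Hp. Lcn2, the iron-carrier-binding lipocalin, lay at 15.8 and 9.10 CPM in AngII, at 0.968 and 0.537 CPM in AngII+3W and at 0.292 and 0.706 CPM in CTRL (-4.04 ± 0.485, edgeR FDR = 0.0208). Mt1, a metallothionein, went from 96.5 and 98.9 CPM to 52.6 and 52.4 CPM, and in CTRL it was at 76.2 and 75.1 CPM. Its change was small but the replicates were close (-0.90 ± 0.112, FDR = 0.0209). The number called was 1, Serpina3n, without AngII replicate 2 or AngII+3W replicate 1 and 7 without AngII+3W replicate 2. Hmox1, heme oxygenase, rested on 1 library, with 13.2 and 91.7 CPM in AngII against 6.56 and 8.92 CPM in AngII+3W (FDR = 0.121). Proteins that the liver makes for plasma, a list added after the values were seen, had 5 of 17 lower and a median of -4.06. This median ranged from -4.48 to -0.62 when each library was left out. In 8 of the 17 both AngII+3W libraries lay below both AngII libraries, and in 9 the groups overlapped. Of the 5 lower genes, Itih4, an inter-alpha-trypsin inhibitor chain, went from 328 and 136 CPM to 24.5 and 19.6 CPM. Lbp, the lipopolysaccharide-binding protein, went from 43.4 and 72.5 CPM to 12 and 14.7 CPM. The number called in this list was 2 without AngII replicate 2 and 0 without AngII+3W replicate 1.

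Interferon-stimulated genes were not called. Of 28 tested, 0 were called by edgeR's quasi-likelihood test, DESeq2 or limma-voom, and the median was -0.02. At an unadjusted p below 0.05 in edgeR's test, 3 were higher and 3 lower, against 1274 and 1785 of all 17182 genes. Iigp1, an immunity-related GTPase, lay at 50.3 and 48.5 CPM in AngII against 59.7 and 68.9 CPM in AngII+3W, with 30.1 and 34.9 CPM in CTRL. Its AngII+3W level was called higher than CTRL (0.98, FDR = 0.0455) and not against AngII (0.38, FDR = 0.178). MHC class II genes had 1 of 8 lower, Ctss, the protease that trims the invariant chain, at 39.7 and 88.4 CPM in AngII against 12.7 and 18.4 CPM in AngII+3W (median of the list -0.49). Of 12 immunoglobulin chains 1 fell, the constant region Ighg2b, from 5.13 and 6.07 CPM to 1.51 and 1.40 CPM, while CTRL lay at 0.0974 and 0.235 CPM. Ighg2b thus lay between CTRL and AngII. Neither Ctss nor Ighg2b was called without AngII+3W replicate 1, where the MHC class II median was 0.02. Without AngII+3W replicate 2, 7 of the 8 MHC class II genes were called lower, with a median of -1.28.

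The circadian clock held 9 of the 49 higher genes, more than any other list. The clock is a transcription loop in which Arntl (BMAL1) with Clock or Npas2 activates genes that hold an E-box, among them Per and Cry genes, whose products repress it. Nr1d1 and Nr1d2 repress Arntl, and the PAR-domain factors Dbp, Tef and Hlf act at D-boxes against Nfil3. Of 19 clock genes tested, these 9 rose and 3 fell, with a median of 0.82, and 12 lay above and 4 below both AngII libraries. The hour of sacrifice is not given, and its part in the clock values was not tested.

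Dbp (chr7:45705088-45710203, forward strand) lay at 14.5 and 16.2 CPM in AngII, at 104 and 139 CPM in AngII+3W and at 29.7 and 37.4 CPM in CTRL (2.98 ± 0.297, edgeR FDR = 0.0145). Both AngII+3W libraries were above all 6 others. Per2 lay at 18.3 and 18.8 CPM in AngII and at 60.9 and 85.0 CPM in AngII+3W, with CTRL at 62.7 and 49.4 CPM (1.98 ± 0.191, FDR = 0.0145). In contrast to Dbp, Per2 overlapped CTRL. Per3 went from 52.3 and 47.8 CPM to 197 and 204 CPM, Tef from 80.6 and 76.4 CPM to 231 and 237 CPM, and Nr1d2 from 70.7 and 66.0 CPM to 203 and 173 CPM. For these 3 genes CTRL lay between AngII and AngII+3W. Hlf, Bhlhe41, Ciart and Cry2 rose as well, Bhlhe41 and Ciart being repressors of the BMAL1 complex. Ciart shares 96.7% identity with a predicted gene over 58.1% of its transcript and is uncertain.

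Arntl and Npas2 of the positive limb went the other way, and so did Nfil3, which acts against Dbp, Tef and Hlf at D-boxes. Arntl lay at 40.9 and 36.2 CPM in AngII, at 8.12 and 10.1 CPM in AngII+3W and at 35.7 and 26.3 CPM in CTRL (-2.08 ± 0.207, edgeR FDR = 0.0145; against CTRL FDR = 0.0455). Its AngII+3W libraries were below all 6 others. Npas2 went from 23.2 and 23.7 CPM to 3.17 and 6.45 CPM, and Nfil3 from 32.5 and 23.3 CPM to 5.21 and 7.25 CPM. Clock itself had 157 and 140 CPM in AngII against 127 and 97.4 CPM in AngII+3W and was not called (FDR = 0.307), and Per1, Cry1, Nr1d1, Rora and Bhlhe40 were among the others not called. Nr1d1 was close to the threshold, with 91.0 and 99.2 CPM in AngII against 161 and 222 CPM in AngII+3W (1.01 ± 0.193, FDR = 0.0516). The number of clock genes called was 0 without AngII replicate 2, 1 (Arntl, with none of the 9 higher genes) without AngII replicate 1, 3 without AngII+3W replicate 1 (Per2, Dbp and Hlf) and 11 without CTRL replicate 1, CTRL replicate 2 or AngII+3W replicate 2.

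**Figure D5:**
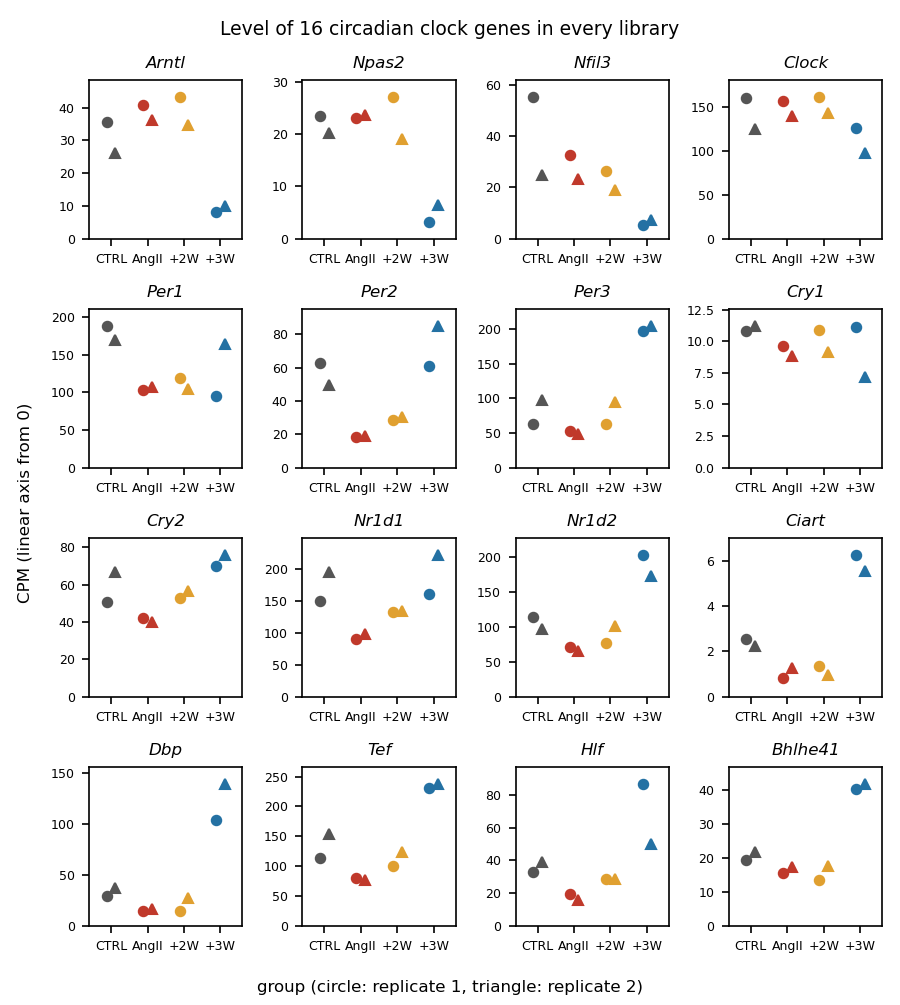
CPM of 16 circadian clock genes in each of the 8 libraries on linear axes from 0, with circles for replicate 1 and triangles for replicate 2. Arntl, Npas2 and Nfil3 are lowest in the AngII+3W libraries, and Dbp, Per3, Tef, Nr1d2, Hlf, Ciart and Bhlhe41 are highest there, with Dbp at 104 and 139 CPM.

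The promoters of 5 called clock genes are shown because they carry the letters through which clock factors are known to bind, in genes that moved in opposite directions. They are windows of 300 bases around the annotated start, from RefSeq on GRCm38.p6, printed on the gene's strand. Capitals mark the E-box CACGTG in Ciart (chr3:95882179-95882478, minus strand), Tef (chr15:81802423-81802722, plus strand) and Bhlhe41 (chr6:145865371-145865670, minus strand), the D-box TTATGTAA in Per3 (chr4:151044616-151044915, minus strand), and the retinoid-related orphan receptor element (RORE) TAGGTCA, here read on the other strand, in Nfil3 (chr13:52980990-52981289, minus strand).
Ciart promoter: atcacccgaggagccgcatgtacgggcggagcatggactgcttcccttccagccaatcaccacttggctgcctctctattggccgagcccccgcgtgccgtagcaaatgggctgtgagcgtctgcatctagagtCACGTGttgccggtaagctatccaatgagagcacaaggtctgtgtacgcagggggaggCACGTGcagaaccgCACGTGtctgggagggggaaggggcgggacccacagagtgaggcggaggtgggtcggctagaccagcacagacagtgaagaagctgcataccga
Tef promoter: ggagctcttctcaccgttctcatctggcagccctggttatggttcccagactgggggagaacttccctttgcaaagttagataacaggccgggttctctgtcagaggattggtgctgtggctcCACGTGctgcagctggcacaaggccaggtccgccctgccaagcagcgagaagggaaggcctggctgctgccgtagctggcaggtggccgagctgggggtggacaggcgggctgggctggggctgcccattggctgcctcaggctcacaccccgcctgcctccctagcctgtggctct
Bhlhe41 promoter: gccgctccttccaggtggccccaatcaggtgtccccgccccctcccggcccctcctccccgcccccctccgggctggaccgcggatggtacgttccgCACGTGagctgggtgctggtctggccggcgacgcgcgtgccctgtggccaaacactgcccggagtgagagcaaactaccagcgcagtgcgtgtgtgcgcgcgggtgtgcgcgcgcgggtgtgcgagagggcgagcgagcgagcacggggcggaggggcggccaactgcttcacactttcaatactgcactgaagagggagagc
Per3 promoter: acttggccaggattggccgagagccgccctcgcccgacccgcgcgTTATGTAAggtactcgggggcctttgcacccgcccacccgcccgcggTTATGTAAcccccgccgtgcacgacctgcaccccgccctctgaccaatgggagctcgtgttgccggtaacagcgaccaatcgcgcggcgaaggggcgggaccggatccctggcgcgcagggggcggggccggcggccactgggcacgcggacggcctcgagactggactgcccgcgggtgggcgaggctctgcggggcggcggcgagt
Nfil3 promoter: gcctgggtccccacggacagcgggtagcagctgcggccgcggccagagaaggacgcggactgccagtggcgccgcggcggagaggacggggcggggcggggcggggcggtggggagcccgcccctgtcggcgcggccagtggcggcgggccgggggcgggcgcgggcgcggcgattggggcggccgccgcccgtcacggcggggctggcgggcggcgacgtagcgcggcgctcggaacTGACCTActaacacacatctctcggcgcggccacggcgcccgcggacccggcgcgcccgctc
Both strands were searched, and the E-box reads the same on both. The matches lie 116, 58 and 44 bases before the start in Ciart, 127 bases before it in Tef, 153 in Bhlhe41, 205 and 158 in Per3 and 12 in Nfil3. Promoter windows were found for 16 of the 19 clock genes. The E-box was in 5 of these 16: 3 of the 8 higher genes, 2 of the 5 not called and 0 of the 3 lower. Clock genes that were not called thus held it about as often as higher ones. The D-box was in 1 and the RORE in 1. No match was found in the windows of the called genes Arntl, Npas2, Cry2, Nr1d2, Dbp and Hlf. Over all 32851 promoters, 7.15% held the E-box, 0.938% the D-box and 2.61% the RORE. A match is a run of letters and not a measured site.

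Markers of Schwann cells were among the higher genes. Of 12 Schwann cell and nerve markers 4 rose, none fell, and the median was 1.07, with 7 above and 2 below both AngII libraries. Among the 4, Mbp, myelin basic protein, went from 33.0 and 27.7 CPM to 55.6 and 57.3 CPM, Sox10, the transcription factor of the Schwann lineage, from 1.84 and 2.13 CPM to 4.68 and 5.48 CPM, and Cdh19, a cadherin of these cells, from 6.43 and 4.64 CPM to 21.3 and 14.7 CPM. Neuronal members were not called: Uchl1 had 3.67 and 5.12 CPM in AngII against 3.92 and 8.92 CPM in AngII+3W, and Th was at or below 0.332 CPM in these 4 libraries. None of the 4 higher markers was called without AngII+3W replicate 1, without either AngII library or without either AngII+2W library. Outside this list, Kcna2, a voltage-gated potassium channel, rose from 15.6 and 16.4 CPM to 35.9 and 36.2 CPM, with CTRL at 31.4 and 30.7 CPM (1.17 ± 0.124, edgeR FDR = 0.0178). Kcna1, a related channel chosen after its values were seen, rose too. The cells that express these 2 channels here were not tested.

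Other higher genes with the smallest p were Ctnna3, an alpha-catenin of muscle junctions, and Plekhb1, a pleckstrin-homology protein of neural cells. Ctnna3 lay at 7.67 and 7.87 CPM in AngII, at 29.2 and 23.0 CPM in AngII+3W and at 42.6 and 32 CPM in CTRL (1.75 ± 0.194, edgeR FDR = 0.0206). Its AngII+3W libraries lay above both AngII and below both CTRL libraries. Plekhb1 went from 3.67 and 3.03 CPM to 10.1 and 9.67 CPM, above CTRL at 6.77 and 6.16 CPM. Among the higher genes outside the lists and the rule, chosen after their values were seen, were ion channels and a hormone receptor. Kcnh2, a potassium channel, went from 12.7 and 13.2 CPM to 23.3 and 29.2 CPM, Ano1, a calcium-activated chloride channel of smooth muscle, from 63.0 and 62.3 CPM to 116 and 138 CPM, and Nr3c2, the mineralocorticoid receptor, from 29.5 and 24.0 CPM to 48.7 and 51.9 CPM. In CTRL, Kcnh2 lay higher, at 40.7 and 35.0 CPM, Ano1 overlapped at 129 and 162 CPM, and Nr3c2 lay lower, at 41.2 and 42.4 CPM. Cirbp, a cold-inducible RNA-binding protein, went from 16.5 and 16.3 CPM to 30.6 and 35.6 CPM. Rhobtb1, Rasl12 and Myom1, a sarcomere protein, also rose, Myom1 from 131 and 141 CPM to 368 and 283 CPM. For Myom1 the library with striated muscle RNA was the higher of its pair. Of the skeletal muscle list, Mylk2, a myosin light chain kinase, was the 1 member of 17 called, from 8.59 and 10.8 CPM to 33.2 and 37.6 CPM, and it was as high in AngII+3W replicate 2. In 6 of the 17 both AngII+3W libraries lay above both AngII libraries, and in 11 the groups overlapped. Acta1 was at 380 CPM in AngII+3W replicate 1 and at 0.860 CPM in replicate 2. The median of the list, 6.14, was -0.16 without AngII+3W replicate 1. Cardiac genes had a median of 1.33, and -1.37 without it.

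Contractile genes were not called. Of 20 contractile genes, 0 were called by edgeR's quasi-likelihood test (1 by DESeq2, 1 by limma-voom), and the median was 0.36. At an unadjusted p below 0.05 in edgeR's test, 4 were higher and 0 lower, against 1274 and 1785 of all 17182 genes. Against CTRL the same libraries had a list median of -1.31. Acta2 (chr19:34241090-34255590, reverse strand) was at 506 and 664 CPM in AngII, at 350 and 550 CPM in AngII+3W and at 3060 and 2250 CPM in CTRL. The AngII and AngII+3W ranges overlapped, and both were far below CTRL (-0.38 ± 0.288, FDR = 0.529 against AngII; -2.56, FDR = 0.0455 against CTRL). Myl9, the regulatory myosin light chain of smooth muscle, was at 123 and 128 CPM in AngII, at 91.3 and 131 CPM in AngII+3W and at 576 and 482 CPM in CTRL (-0.17, FDR = 0.676; without AngII+3W replicate 1 0.07). Tagln, transgelin, did likewise, with 198 and 223 CPM in AngII, then 159 and 280 CPM in AngII+3W and 1040 and 830 CPM in CTRL. Tpm2, a tropomyosin, came nearest to a call, with 85.6 and 111 CPM in AngII, then 222 and 171 CPM in AngII+3W and 426 and 340 CPM in CTRL (1.00 ± 0.198, FDR = 0.0551). Myh11, the smooth muscle myosin heavy chain, had 619 and 804 CPM in AngII against 766 and 1580 CPM in AngII+3W (FDR = 0.316). For Acta2, Myl9, Tagln and Myh11, AngII+3W replicate 1 was the lower of its pair. The count was 3 without AngII+3W replicate 2, where the median was -0.14, and 0 without AngII+3W replicate 1, where it was 0.50.

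The regulators of these genes gave 0 calls of 16 by edgeR's quasi-likelihood test, DESeq2 and limma-voom. At an unadjusted p below 0.05 in edgeR's test, 1 was higher and 1 lower. Their median was 0.19, and it was 0.10 without AngII+3W replicate 1 and -0.01 without AngII+3W replicate 2. Klf5 had the smallest p of the list (1.40 ± 0.374, edgeR FDR = 0.116). It lay at 1.46 and 1.42 CPM in AngII and at 5 and 2.63 CPM in AngII+3W. Myocd, myocardin, the coactivator that drives contractile genes, lay at 27.9 and 33.8 CPM in AngII, at 41.3 and 59.3 CPM in AngII+3W and at 203 and 94.1 CPM in CTRL (0.70, FDR = 0.333). Srf, the factor that myocardin binds, lay at 25.5 and 27.3 CPM in AngII and at 24.3 and 24.3 CPM in AngII+3W, with CTRL at 50.7 and 48.4 CPM (-0.12, FDR = 0.725). Myocd thus lay above AngII in both libraries without passing the test, and Srf was level. Kcnc4, a voltage-gated potassium channel, had 1.35 and 2.04 CPM in AngII, then 2.26 and 2.31 CPM in AngII+3W and 19.0 and 14.6 CPM in CTRL (0.42, FDR = 0.516 against AngII; -2.88, FDR = 0.0453 against CTRL). Lancl3, a lanthionine synthetase-like protein, had 3.56 and 3.32 CPM, 4.84 and 3.65 CPM and 26.3 and 16.2 CPM in the same order (0.30, FDR = 0.623 against AngII; -2.32, FDR = 0.0455 against CTRL). Across all genes, AngII+3W against CTRL called 49 of 17182 (0.285%), 3 higher and 46 lower. The comparisons with AngII and with CTRL share the AngII+3W libraries, so that their values are set side by side only.

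In the signalling systems nearest to AngII, 1 or 2 genes a list were called, or none. Lower genes made up 5.88% of renin-angiotensin, 5.56% of nitric oxide and 20% of IGF genes, against 1.32% of all genes tested. Of 17 renin-angiotensin genes 1 fell, Prcp, a carboxypeptidase that cleaves AngII, from 40.4 and 52.6 CPM to 24.1 and 26.5 CPM, with CTRL at 24.1 and 23.2 CPM (-0.88 ± 0.153, edgeR FDR = 0.0428). Agtr2, the type 2 receptor, had 1.57 and 1.47 CPM in AngII against 0.108 and 0.0537 CPM in AngII+3W, and was at 0 in both CTRL libraries (FDR = 0.0816). Of 18 nitric oxide and cGMP genes 1 fell, Ddah1, which degrades inhibitors of nitric oxide synthase, from 25.9 and 14.4 CPM to 1.34 and 1.77 CPM (-3.69 ± 0.428, FDR = 0.0206). Prcp and Ddah1 were both at the CTRL level. Of 10 IGF genes, the binding proteins Igfbp6 and Igfbp7 fell, and Igfbp7 reached 104 and 166 CPM from 328 and 358 CPM, below CTRL at 369 and 332 CPM. The 16 NADPH oxidase and antioxidant genes had 0 calls by edgeR and limma-voom, 6 by DESeq2, and a median of -0.44. At an unadjusted p below 0.05 in edgeR's test, 1 was higher and 10 lower, against 1274 and 1785 of all 17182 genes. Sod3, the extracellular superoxide dismutase, was nearest, with 233 and 221 CPM in AngII against 97.3 and 151 CPM in AngII+3W (FDR = 0.0849). Without AngII+3W replicate 2, 3 of the 16 were called lower. The numbers called were 0 of 17 renin-angiotensin, 0 of 18 nitric oxide and 0 of 10 IGF genes without AngII+3W replicate 1 or AngII replicate 2, and 2, 3 and 3 without AngII+3W replicate 2.

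The remaining pathway lists had 0 calls by edgeR's quasi-likelihood test at FDR below 0.05. They were the TGF-beta family (21 genes, median -0.01, 2 higher and 3 lower at an unadjusted p below 0.05, 2 called by DESeq2), heat shock (21 genes, -0.19, 1 and 6, 3 by DESeq2), immediate early genes (20 genes, -0.13, 1 and 2, 1 by DESeq2), lipogenesis (20 genes, 0.06, 0 and 0, 1 by DESeq2), chondrogenic genes (13 genes, -0.45, 1 and 5, 2 by DESeq2) and histone and DNA modifying enzymes (24 genes, 0.05, 3 and 0, 0 by DESeq2). Limma-voom called 1 heat shock gene and none of the others. Of all 17182 genes tested, 1274 were higher and 1785 lower at an unadjusted p below 0.05 in edgeR's test. Without AngII+3W replicate 2, edgeR called 3 TGF-beta and 4 chondrogenic genes lower, 1 heat shock gene higher, and 1 immediate early and 1 lipogenesis gene lower, and without AngII replicate 1 it called 1 chondrogenic gene lower. Oxidative phosphorylation genes of the mitochondrial genome had a median of 0.72 and those of the nuclear genome 0.16, and the mitochondrial share was highest in the library with striated muscle RNA. Without that library the medians were 0.35 and -0.05. Hspb1, a small heat shock protein of muscle, had 54.2 and 48.4 CPM in AngII against 35.9 and 40.4 CPM in AngII+3W, not called against AngII (-0.43, FDR = 0.157) and called against CTRL at 153 and 146 CPM (-1.97, FDR = 0.0128).

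Of the cell type markers, adventitial fibroblast genes had 2 of 12 lower, Lum and Ly6a, with a median of -0.93 (0 called without any other single library, 6 without AngII+3W replicate 2). Lum, lumican, which spaces collagen fibrils, went from 204 and 234 CPM to 27.2 and 55.8 CPM, with CTRL at 37.2 and 21.4 CPM (-2.40 ± 0.404, edgeR FDR = 0.0413). The 13 endothelial markers had 0 calls by edgeR, DESeq2 and limma-voom and a median of -0.20. Their sum was 1380 and 1500 CPM in AngII against 1230 and 1380 CPM in AngII+3W. The 6 red blood cell genes all lay below both AngII libraries, with a median of -1.71 and 0 calls (5 by DESeq2). Their sum was 3020 and 3060 CPM in AngII against 1180 and 787 CPM in AngII+3W, with CTRL at 4360 and 4300 CPM. The part of blood or of fibroblast number in the other results was not tested.

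The test of whether the 3-week level differs from the 2-week level is the comparison of AngII+3W with AngII+2W. It called 0 of 17182 genes (0%) by edgeR's quasi-likelihood test, while 1518 genes had an unadjusted p below 0.05 and DESeq2 called 221. The smallest FDR was 0.0902, for Arntl and Tmem120a. Arntl was at 43.3 and 34.7 CPM in AngII+2W, level with AngII and above AngII+3W (AngII+3W against AngII+2W -2.10). Clock genes filled the next places, with an FDR of 0.142 for Dbp (2.51) and for Bhlhe41 (1.40). Dbp was at 15.1 and 27.5 CPM in AngII+2W. Serpina3n was at 22 and 21 CPM in AngII+2W, above both of its AngII+3W values without passing the test (-0.89 ± 0.206 SE, FDR = 0.391), and Mki67 was at 14 and 13.6 CPM. Col8a1 was at 49.1 and 30.2 CPM and Cthrc1 at 2.85 and 1.66 CPM, around the AngII+3W values of 19.1 and 38.6 CPM and 0.591 and 2.58 CPM. The comparisons of AngII+3W and AngII+2W with AngII share the AngII libraries.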

How the data were processed

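RNA of 8 aortic libraries was depleted of ribosomal RNA and sequenced by the authors, who estimated transcript abundance with Salmon on GRCm38.p6 and deposited 1 expected count per gene, without normalization. Here the deposited expected counts were rounded to whole numbers and filtered with filterByExpr, scaled by TMM and fitted in edgeR 4.0.16 (R 4.3.3) with a coefficient for each of 4 groups, which leaves 4 residual degrees of freedom. The two-sided quasi-likelihood F test of the older edgeR form was adjusted by the Benjamini-Hochberg method over 17182 genes, with a threshold of FDR below 0.05. limma 3.58.1 and DESeq2 1.42.0 served as alternatives. The scripts were tested on simulated data. CPM used TMM-scaled library sizes, and the SE is the log2 fold change divided by the square root of F. With 2 libraries a group an exact permutation test could not fall below p = 0.33 and was not used.

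Named genes were, by smallest p, 10 that were higher and 10 that were lower, without predicted gene models and muscle genes, up to 4 members of each list with the smallest p, and Acta2, Myocd, Myl9, Kcnc4, Lancl3 and Srf. Further members are named to complete a count. The comparison, lists and rules were chosen with earlier results of these data known, and genes named as chosen after their values were seen fall outside the rule. Positions are from GENCODE on GRCm38, which held 99.5% of the identifiers tested, and promoters from RefSeq. Near-identical copies were searched among annotated transcripts (at least 95% identity over at least 50% of the transcript), and 29 of the 276 called genes had one. The p-values set a difference between groups against the spread between pools, which is estimated over all 4 groups. A few members of the lists are counted but not reported here by name.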

Additional observations from a re-analysis of the deposited data

How the results depend on the processing

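The 276 genes called between AngII+3W and AngII became 274 with DESeq2's size factors, 179 with library totals alone, 522 with every gene of at least 1 count, 362 with at least 10 counts in every library, 968 with DESeq2 (232 higher, 736 lower), 1068 with edgeR's likelihood ratio test, 287 with limma-voom, 346 with the newer edgeR fit, 296 without striated muscle genes (added after seeing the data), 0 with only the 4 libraries compared (2528 genes at an unadjusted p below 0.05), and 3 to 1005 with 1 library left out, where the remaining library of a group is assumed to vary like the others. Higher genes were 17.8% of the calls, and 0 to 36.3% with 1 library left out (1.56% without AngII replicate 1, 0 without AngII replicate 2 and 36.3% without AngII+3W replicate 2). AngII+3W against AngII+2W, with 0 calls, gave 11 with at least 1 count, 221 with DESeq2, 273 with the likelihood ratio test, 2 with the replicate block, and 0 to 432 with 1 library left out (432 without AngII+3W replicate 2). Same-numbered libraries deviated together with r from -0.01 to 0.33 over 15159 genes (0.33 between AngII and AngII+3W), and the labels name no shared batch or litter, so that whether the numbers pair the pools is unknown and they were not used as pairs. The replicate block called 221 genes in AngII+3W against AngII, 184 of them among the 276. List medians moved with library totals for smooth muscle regulators (0.13), the renin-angiotensin system (-0.50) and histone enzymes (0.00, at which the sign was lost), with at least 10 counts for acute-phase proteins (-1.54) and the renin-angiotensin system (-0.40), and with limma-voom for acute-phase proteins (-1.91). With 1 library left out, medians ranged from -0.14 to 0.51 for contractile genes, -0.01 to 0.24 for smooth muscle regulators, -2.47 to -1.35 for collagens, -2.37 to -1.50 for matricellular proteins, -2.05 to -0.74 for elastic fibres, -1.58 to -0.39 for proteases, -0.21 to 0.09 for the TGF-beta family, -0.98 to -0.35 for IGF genes, -1.99 to -1.26 for the cell cycle, -1.63 to -0.51 for chemokines, -1.77 to -1.12 for complement, -1.28 to 0.02 for MHC class II, -0.19 to 0.21 for interferon-stimulated genes, -2.34 to -1.80 for acute-phase proteins, -0.51 to -0.36 for the renin-angiotensin system, -0.09 to 0.16 for nitric oxide, -0.57 to -0.38 for NADPH oxidases, -0.33 to -0.17 for heat shock, 0.72 to 0.92 for the clock, -0.42 to 0.21 for immediate early genes, -0.12 to 0.17 for lipogenesis, -1.11 to -0.34 for chondrogenic genes and 0.02 to 0.11 for histone enzymes. Signs also changed without AngII+3W replicate 1 for skeletal muscle (-0.16 to 7.08 over the libraries left out), cardiac muscle (-1.37 to 2.10), B and plasma cells (-0.55 to 0.74, also below 0 without AngII replicate 1), Ndufs1 (-0.01 to 0.60) and Myl9 (-0.51 to 0.07), without AngII+3W replicate 2 for smooth muscle cells (-0.07 to 0.80), and without AngII replicate 2 for Igkc (-1.54 to 0.36). The cause of these changes was not tested. The median over all genes in AngII+3W against AngII stayed between -0.024 and 0.039 in these settings.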

Other observations

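The called genes named here lie outside the lists and were chosen after their values were seen, so that they stand for no group. Lgmn, the lysosomal protease legumain, lay at 93.9 and 133 CPM in AngII against 36.9 and 43.3 CPM in AngII+3W, with CTRL at 50.6 and 47.7 CPM, Ctsk, cathepsin K, a collagen-degrading enzyme, at 43.8 and 64.3 CPM against 7.10 and 11.8 CPM, and Ctsz and Ctsc were called as well. Lrrc15, a membrane protein with leucine-rich repeats, lay at 10.6 and 10.3 CPM in AngII against 1.24 and 1.02 CPM in AngII+3W, and Fap, fibroblast activation protein, at 44.9 and 48.4 CPM against 14.2 and 20.5 CPM. Cdkn1a, the cell cycle inhibitor p21, fell from 57.4 and 56.4 CPM to 19.2 and 16.8 CPM, and its CTRL values of 84.5 and 49.3 CPM were also higher. Emb, embigin, a chaperone of monocarboxylate transporters, went from 37.0 and 40.5 CPM to 8.60 and 7.15 CPM, against 40.7 and 22.1 CPM in CTRL.

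Markers of other blood and fat cells gave 0 calls by edgeR's quasi-likelihood test. The T cell list had 9 genes tested with a median of 0.39, the neutrophil and mast cell list 9 genes with a median of -1.24, and the brown adipocyte list 8 genes with a median of -0.45. At an unadjusted p below 0.05 these lists had 0, 5 and 3 lower genes and none higher, and DESeq2 called 0, 0 and 1. Of all 17182 genes, 1785 were lower and 1274 higher at that p in edgeR's test. Summed adipocyte markers lay at 12300 and 10900 CPM in AngII against 10800 and 10500 CPM in AngII+3W. Elovl3, a fatty acid elongase of brown fat, lay at 48.0 and 26.5 CPM in AngII, at 15.2 and 8.76 CPM in AngII+3W and at 3.22 and 3.95 CPM in CTRL, and was not called (FDR = 0.062).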
